A study of Homo sapiens with 2 samples.

Results

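The genes described here are 39 genes of DNA replication and S phase: the licensing and helicase genes CDC6, MCM2 to MCM7, MCM10, CDC45 and GINS1 to GINS3, the polymerase, clamp and clamp loader genes, the nucleotide supply genes, and genes of repair, chromatin, the checkpoint and the E2F and cyclin E system. They were taken by gene symbol from a list of genes known for roles in this process, and all 39 were found among the 36601 genes of the files. They were measured in 1 single-cell library that pooled 13 tumours. The tumours came from OVCAR5, a human cell line of ovarian carcinoma that here carried a reporter of interferon gamma (IFNg) sensing, and grew in NSG-B2m-/- mice, a severely immunodeficient strain. Tumours were injected with IFNg, with tumour necrosis factor alpha (TNFa) or with the combination, or were left unexposed, and CFP+ tumour cells, called bystander cells in the labels, were sorted from the pool. Per the description of the pool, 3 tumours received TNFa (10 ng/ml) and 2 received IFNg (100 ng/ml) with TNFa (10 ng/ml), all taken at 6 h. IFNg alone (100 ng/ml) was given to 2 tumours taken at 24 h and 1 taken at 48 h, and 5 tumours were left unexposed, 2 for 6 h, 2 for 24 h and 1 for 48 h. The treatment fields of the gene expression and hashtag libraries each name a single condition, which is at odds with that description.

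Before a cell divides it copies its genome once. In G1 phase, CDC6 helps to load the ring of MCM2 to MCM7 onto origins; CDC45 and the GINS complex join that ring to make the working helicase, and polymerases, the sliding clamp PCNA and its loader RFC then copy the opened strands while thymidylate synthase and ribonucleotide reductase supply building blocks. Many of these genes are targets of E2F transcription factors, which the retinoblastoma protein holds back until cyclin and CDK activity frees them. Cultured carcinoma cells are known for a high proliferation rate, and IFNg is known to slow the cell cycle in many cell types.

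Promoter windows of a fixed length of 300 bases (250 before to 50 after the transcription start, RefSeq, GRCh38.p14) were at hand for 35 of the 39 genes; MCM4, MCM5, CCNE2 and E2F8 had none. They are shown because the genes are usually grouped by E2F control. CLSPN, TYMS and RRM2 are printed since they had the highest mean correlation with the other genes over cells, and MCM6 was added after its matches were seen. Capitals mark the 8-letter E2F words TTTCCCGC, TTTCGCGC, TTTGCCGC and TTTGGCGC, searched on both strands, where overlapping words run together.
TYMS, chr18:657403-657702, plus strand: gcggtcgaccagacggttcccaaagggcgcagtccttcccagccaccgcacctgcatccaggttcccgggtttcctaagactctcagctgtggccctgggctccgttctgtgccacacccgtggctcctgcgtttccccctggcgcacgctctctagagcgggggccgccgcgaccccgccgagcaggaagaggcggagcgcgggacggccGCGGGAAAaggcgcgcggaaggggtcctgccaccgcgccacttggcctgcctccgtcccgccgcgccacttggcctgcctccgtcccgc
CLSPN, chr1:35769929-35770228, minus strand: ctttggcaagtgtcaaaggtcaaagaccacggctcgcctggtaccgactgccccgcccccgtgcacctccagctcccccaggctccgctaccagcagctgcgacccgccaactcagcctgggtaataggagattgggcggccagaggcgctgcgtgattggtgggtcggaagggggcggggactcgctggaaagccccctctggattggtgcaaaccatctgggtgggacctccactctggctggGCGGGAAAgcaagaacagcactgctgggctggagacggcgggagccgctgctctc
RRM2, chr2:10122489-10122788, plus strand: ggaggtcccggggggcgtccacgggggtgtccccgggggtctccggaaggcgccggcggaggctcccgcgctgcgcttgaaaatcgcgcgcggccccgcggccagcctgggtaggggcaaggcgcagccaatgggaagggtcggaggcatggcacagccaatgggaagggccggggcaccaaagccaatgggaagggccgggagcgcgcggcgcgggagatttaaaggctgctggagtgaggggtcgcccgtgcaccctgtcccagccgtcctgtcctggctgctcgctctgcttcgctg
MCM6, chr2:135876394-135876693, minus strand: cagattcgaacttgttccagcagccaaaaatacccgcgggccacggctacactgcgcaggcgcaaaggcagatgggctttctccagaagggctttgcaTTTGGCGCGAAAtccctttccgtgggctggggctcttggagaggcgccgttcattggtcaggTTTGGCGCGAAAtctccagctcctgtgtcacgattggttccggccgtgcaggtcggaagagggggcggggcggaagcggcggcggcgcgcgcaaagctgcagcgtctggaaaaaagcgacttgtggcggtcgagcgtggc
The TYMS word began 39 bases before the start and the CLSPN word 5 bases before it, so that the latter ran across the start. RRM2 held none of these words in its window, and MCM6 held 4, at 152, 148, 90 and 86 bases before the start, in 2 overlapping groups.

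Over the 35 genes with a window, 20 (57.1%) held at least 1 of the E2F words in any of their windows, against 3.99% of all 27305 genes with a window. The share was 37.8% for 37 further replication genes, 6.82% for 44 genes of G2 phase and mitosis and 0 of 10 IFNg response genes. In the first window of each gene, 18 of the genes held 25 matches, and 16 of these matches lay between 60 bases before and 10 bases after the start. Positions of matches were not computed over all genes, so these counts have no background beside them. The CHR element (TTTGAA or TTCGAA), known from promoters of mitotic genes, was rarer in the windows of these genes: 8.57% of the 35 genes held it, against 75.0% of the G2 and mitosis genes and 19.5% of all genes. The CCAAT box was found in 65.7% of the 35 genes, in 72.7% of the G2 and mitosis genes and in 39.7% of all genes. A match describes letters in a window and no binding was measured.

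The files held 9083 cell barcodes. Of these, 3611 had at least 500 genes and no more than 20% of their UMIs (counted RNA molecules) from mitochondrial genes, and 2994 of them carried 1 of 13 pairs of hashtags, antibody barcodes added before pooling. The pairs are named by their hashtags (HTO2+HTO8 and so on). The sources used here do not say which pair marked which tumour, so the pairs are described one by one, no exposed group is compared with an unexposed one and there is no test. Cells of the pairs had a median of 8646 UMIs and 2842 genes. Epithelial markers reached 5512 CPM (UMIs per 1000000 UMIs of the cells summed), from 160034 UMIs, while fibroblast, endothelial and macrophage or monocyte markers had 157, 871 and 1728 UMIs and T cell, B cell and erythroid markers 13, 12 and 2 UMIs. Exact 95% intervals stand in brackets; they hold the counting error and nothing else.

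The 39 genes together gave 27610 UMIs, or 951 CPM, and their level differed between the pairs (see the plot of summed level by pair). It was lowest in HTO2+HTO8, at 525 CPM (493 to 559). HTO2+HTO6 and HTO2+HTO9 followed at 759.7 and 760.4 CPM, then HTO3+HTO5 at 818, HTO2+HTO7 at 827 and HTO4+HTO9 at 1019.7 CPM. Of the 5 lowest pairs, 4 contained HTO2. HTO2+HTO5 lay at 1048, HTO3+HTO6 at 1059 and HTO3+HTO9 at 1082 CPM. The 4 highest pairs were HTO4+HTO7 at 1124, HTO4+HTO8 at 1193, HTO4+HTO6 at 1208 and HTO3+HTO7 at 1208 CPM. The highest pair had 2.30 times the level of the lowest (2.12 to 2.49). Of the 12 steps between neighbours in this order, 10 had overlapping intervals, so most neighbours were not separated by counting error. The 5 pairs that contain HTO2 ran from 525 to 1048 CPM (median 760.4) and the 8 others from 818 to 1208 CPM (median 1103), so these ranges overlapped; that grouping was made after the values were seen.

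**Figure D1:**
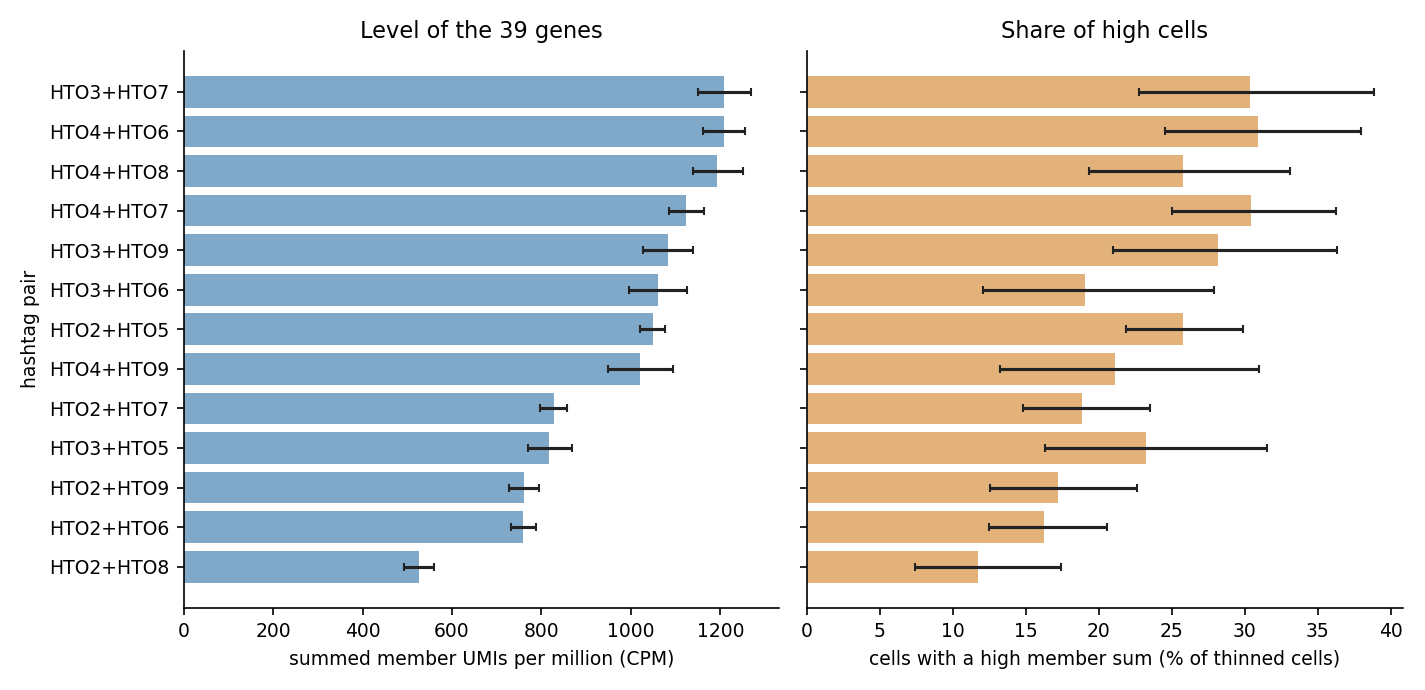
Left, summed UMIs per 1000000 (CPM) of the 39 replication genes in each of the 13 hashtag pairs, with exact Poisson 95% intervals as bars; right, percent of cells thinned to 4000 UMIs that had a high sum of the 39 genes, with exact binomial 95% intervals. HTO2+HTO8 is lowest in both panels, at 525 CPM and 11.7% of cells.

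A summed level mixes how many cells are replicating with how much RNA each of them holds. To look at both, each cell was thinned to 4000 UMIs, which left 2808 cells and dropped 186 shallower ones. The thinned sum of the 39 genes had a median of 2 UMIs and a highest value of 46, and 590 cells (21.0%) had 0. Cells with 4 UMIs or more, the 80th percentile, are called high cells: there were 640 (22.8%), of which 151 lay at that limit, while 278 cells lay 1 UMI below it. High cells are therefore a range of a continuous sum and not a cell type.

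High cells made up 11.7% of HTO2+HTO8 (7.41 to 17.4%), 16.2% of HTO2+HTO6, 17.2% of HTO2+HTO9 and 18.9% of HTO2+HTO7. HTO3+HTO6, HTO4+HTO9 and HTO3+HTO5 had 19.0, 21.1 and 23.3%. In HTO2+HTO5, HTO4+HTO8 and HTO3+HTO9 the share was 25.7, 25.7 and 28.2%. The highest shares were 30.4% in HTO3+HTO7 and HTO4+HTO7 and 30.9% in HTO4+HTO6 (24.5 to 37.9%), whose interval did not meet that of HTO2+HTO8. The intervals of all 12 neighbouring steps overlapped. Without thinning, the share of cells with 4 UMIs or more ran from 35.7% in HTO2+HTO8 to 58.2% in HTO4+HTO6. Within the high cells the 39 genes reached 1854 CPM in HTO3+HTO5 and in HTO2+HTO8 and up to 2921 CPM in HTO4+HTO9; in the other cells they lay between 295 CPM in HTO2+HTO8 and 443 CPM in HTO3+HTO6. High cells held 51.8% of the UMIs of these genes in HTO2+HTO8 and 80.8% in HTO3+HTO7. HTO2+HTO8 was thus at the low end in the share of high cells, in the level within them and in the level of the remaining cells. These values are parts of the same summed level, since the high cells were cut on the same genes, and are not separate evidence. Free RNA in the droplets, which could add UMIs to cells that do not express these genes, was not measured.

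Other values also differed between the pairs, and not always in step with the replication genes. In HTO2+HTO8 the IFNg response genes reached 24297 CPM and the NF-kB and TNFa response genes 5899 CPM, and in HTO2+HTO9 they reached 20506 and 7302 CPM. In HTO3+HTO7, the highest pair for the replication genes by a narrow margin over HTO4+HTO6, they were at 641 and 801 CPM. HTO4+HTO8, with 1193 CPM of the replication genes, had 8673 CPM of IFNg response genes and 1318 CPM of NF-kB and TNFa response genes. HTO4+HTO9 had 10192 and 1488 CPM. HTO3+HTO5, with only 818 CPM of the replication genes, had 603 and 1189 CPM, the former the lowest of the 13 pairs. HTO2+HTO6, with 759.7 CPM of the replication genes, had 2479 and 9737 CPM, the latter the highest. Epithelial markers were lowest in HTO2+HTO8, at 3878 CPM, and highest in HTO4+HTO6, at 7568 CPM. The cell filter kept 24.3% of the barcodes of HTO3+HTO6, 50.5% of those of HTO2+HTO8 and 58.2% of those of HTO4+HTO7. The part of these in the replication levels was not tested.

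Single genes followed the summed level. Of the 22 genes with 300 UMIs or more, 20 had a highest pair at least 2-fold above their lowest pair, against 49.1% of all 8015 genes with as many UMIs, and the median ratio was 3.17 against 1.98 over those genes. Sparse genes spread more by counting noise. The share of all genes was 78.6% at 300 to under 600 UMIs, where 7 of 7 of the replication genes differed 2-fold. It was 52.3% at 600 to under 1200 UMIs (9 of 10), 32.4% at 1200 to under 2400 UMIs (4 of 4) and 23.6% at 2400 to under 6000 UMIs (0 of 1). HTO2+HTO8 was the lowest pair for 22 of the 22, against 21.4% of all genes, and these counts came from the same 185 cells. Over all 39 genes it was lowest for 33, against 19.7% of all genes with 30 UMIs or more. At a minimum of 30 UMIs, which all 39 passed, 37 differed 2-fold or more, against 69.3% of all genes. The median over the HTO2 pairs lay below the median over the other pairs for 22 of 22, against 67.7% of all genes, by a factor of 1.09 (HELLS) to 2.07 (MCM6). For 0 of the 22 did every HTO2 pair lie below every other pair, against 1.8% of all genes. Highest were most often HTO4+HTO6 (7 of the 22), HTO4+HTO8 and HTO4+HTO9 (4 each). The 17 genes under 300 UMIs had 53 to 285 UMIs each, and 11 of them were lowest in HTO2+HTO8.

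**Figure D2:**
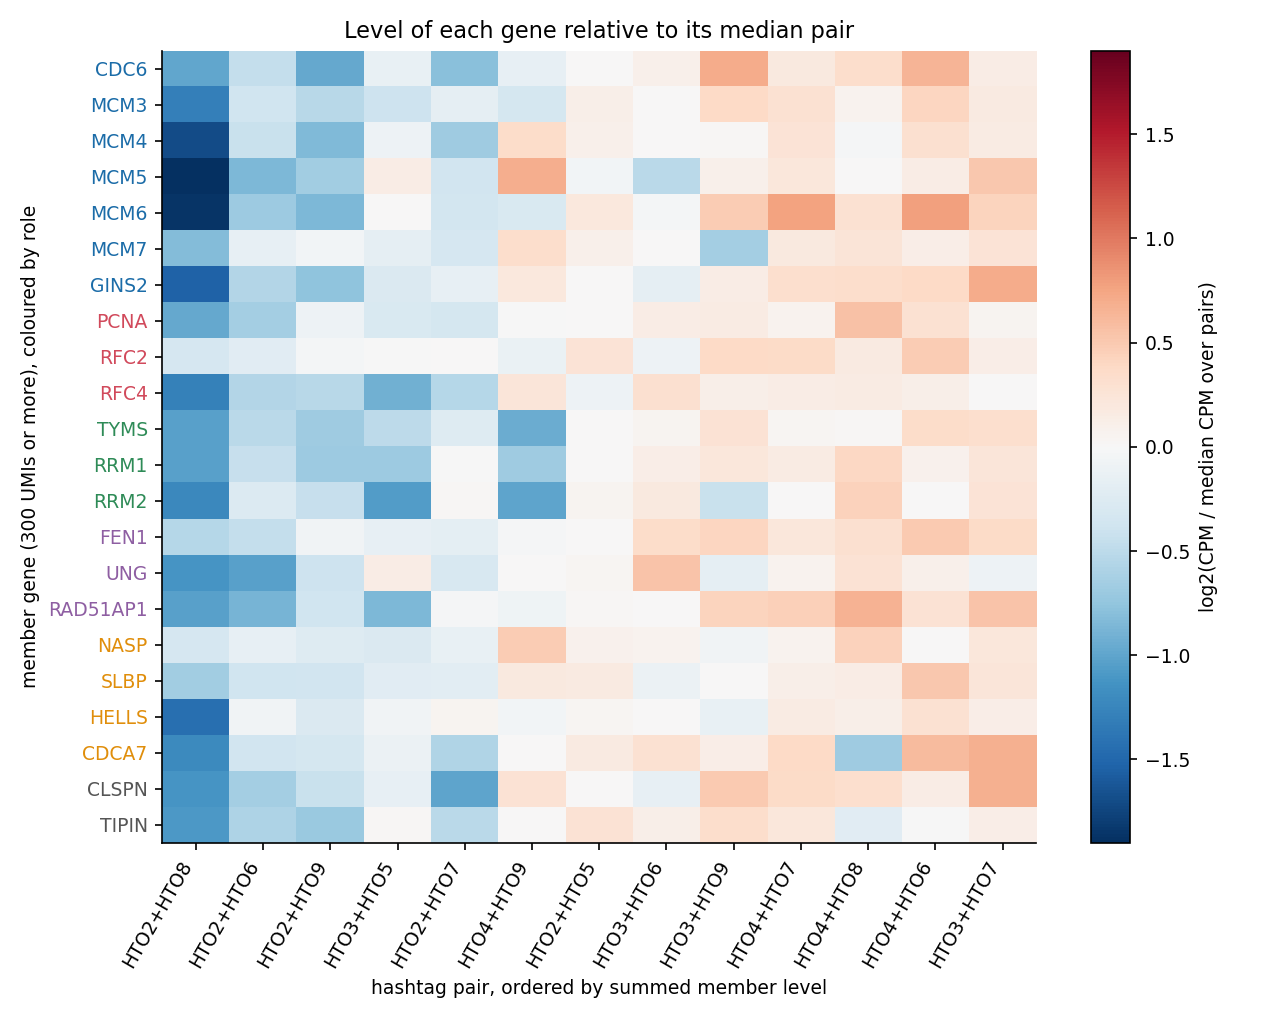
Colour shows log2 of CPM over the gene's median pair for the 22 replication genes with 300 UMIs or more (vertical axis, coloured by role) in the 13 hashtag pairs (horizontal axis, in order of the summed level). The column of HTO2+HTO8 is the lowest for 22 of the 22 genes.

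The licensing and helicase genes had the widest span between pairs of any role, between 91.9 CPM in HTO2+HTO8 and 308 CPM in HTO4+HTO6, a ratio of 3.35 (2.83 to 3.99), with a median pair at 254 CPM. MCM6, a subunit of the MCM ring (chromosome 2, 135839626 to 135876426, minus strand, GENCODE 29), had 4.86 CPM in HTO2+HTO8, 17.6 CPM in its median pair and 30.1 CPM in HTO4+HTO6. In the HTO2 pairs MCM6 stood at 4.86, 9.70, 10.9, 13.8 and 20.2 CPM and in the others at 14.4 to 30.1 CPM, so the ranges met between 14.4 and 20.2 CPM. The ratio of its highest to its lowest pair was 6.20 (3.07 to 14.2). Other ring subunits were lowest in the same pair: MCM5 lay between 5.40 CPM in HTO2+HTO8 and 32.6 CPM in HTO4+HTO9, with a median of 20.2 CPM, and MCM4 from 15.1 to 62.7 CPM in the same pairs, with a median of 49.3 CPM. MCM3 spanned 16.8 to 54.7 CPM. MCM7, also of the ring, varied least of these, between 20.5 CPM in HTO2+HTO8 and 45.7 CPM in HTO4+HTO9, which gave a ratio of 2.23 (1.36 to 3.62). CDC6, the loader of the ring, lay between 8.11 CPM in HTO2+HTO8 and 26.1 CPM in HTO3+HTO9. GINS2, a subunit of the complex that activates the helicase, lay between 7.03 CPM in HTO2+HTO8 and 33.1 CPM in HTO3+HTO7, a ratio of 4.72 (2.50 to 9.53). MCM2, MCM10, CDC45, GINS1 and GINS3 had 111 to 285 UMIs each, and MCM10 (HTO3+HTO5) and GINS3 (HTO4+HTO9) were lowest outside HTO2+HTO8.

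The polymerase start, clamp and clamp loader genes lay between 79.99 CPM in HTO2+HTO8 and 199 CPM in HTO4+HTO8, a ratio of 2.49 (2.04 to 3.06). PCNA, the sliding clamp (chromosome 20, 5114953 to 5126626, minus strand), had 33.5 CPM in HTO2+HTO8, 42.0 in HTO2+HTO6, 65.4 in its median pair and 96.3 CPM in HTO4+HTO8, a ratio of 2.87 (2.12 to 3.94). Its next highest pair, HTO4+HTO6, was at 80.2 CPM. RFC4, a subunit of the loader that opens the clamp, lay between 12.4 CPM in HTO2+HTO8 and 37.3 CPM in HTO3+HTO6. RFC2, from the same loader, had the narrowest span of the 22 genes, 21.6 to 37.6 CPM, a ratio of 1.74 (1.18 to 2.60), and was 1 of the 2 genes under 2-fold. RFC3, RFC5, POLA1, the catalytic subunit of the polymerase that starts each strand, and PRIM1, the primase subunit that makes its RNA primer, had 192 to 267 UMIs each. POLA1 ranged from 4.49 to 10.1 CPM and was lowest in HTO2+HTO7.

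Genes of nucleotide supply reached 74.6 CPM in HTO2+HTO8, 84.9 in HTO4+HTO9 and 193 CPM in HTO3+HTO7, a ratio of 2.59 (2.097 to 3.20) from lowest to highest. TYMS, which makes thymidylate (chromosome 18, 657604 to 673578, plus strand), had 40.5 CPM in HTO2+HTO8, 43.1 in HTO4+HTO9, 83.2 in its median pair and 106 CPM in HTO4+HTO6. RRM2, the regulated subunit of ribonucleotide reductase, had 17.8 CPM in HTO2+HTO8, 19.9 in HTO3+HTO5, 20.9 in HTO4+HTO9, a median of 41.7 and 56.6 CPM in HTO4+HTO8. RRM1, its large subunit, lay between 16.2 CPM in HTO2+HTO8 and 43.8 CPM in HTO4+HTO8, with 20.9 CPM in HTO4+HTO9. HTO4+HTO9 thus sat near the low end for the 3 nucleotide genes while it had the highest level of MCM4, MCM5, MCM7 and NASP. Its sum of G2 and mitosis genes was 1266 CPM, the lowest of the 13 pairs, and it held 110 cells.

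Genes of flap removal and repair lay between 37.3 CPM in HTO2+HTO8 and 91.3 CPM in HTO4+HTO6, a ratio of 2.45 (1.85 to 3.27). FEN1, the nuclease that trims flaps between newly made fragments, spanned 22.7 CPM in HTO2+HTO8, 33.2 in its median pair and 46.8 CPM in HTO4+HTO6. UNG, which removes uracil from DNA, lay between 5.40 CPM in HTO2+HTO8 and 17.1 CPM in HTO3+HTO6, and RAD51AP1, which acts in repair by recombination, from 5.40 to 17.5 CPM in HTO4+HTO8. BLM, a helicase of the RecQ family, had 253 UMIs. EXO1, an exonuclease, had 0 UMIs in HTO2+HTO8, which allows up to 1.62 CPM (3 UMIs of that pair), and 9 UMIs or 4.17 CPM in HTO4+HTO6.

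As a sum, the chromatin and histone supply genes varied least of the roles, between 206 CPM in HTO2+HTO8 and 385 CPM in HTO4+HTO9, which gave a ratio of 1.87 (1.60 to 2.18). NASP, a histone chaperone (chromosome 1, 45583846 to 45618904, plus strand), supplied 18.5% of all UMIs of the 39 genes and 5098 of the 8812 UMIs of this role. It ran from 142 CPM in HTO2+HTO8 through a median of 177 to 247 CPM in HTO4+HTO9, which gave a ratio of 1.74 (1.44 to 2.11), the other gene under 2-fold. SLBP, which binds the stem-loop of histone mRNAs, had 29.7 CPM in HTO2+HTO8 and 66.8 CPM in HTO4+HTO6. HELLS, a chromatin remodeller, stood at 14.6 CPM in HTO2+HTO8, while its other 12 pairs lay between 32.6 and 47.8 CPM. CDCA7, which recruits HELLS, lay between 13.5 CPM in HTO2+HTO8 and 50.1 CPM in HTO3+HTO7, and was at 19.5 CPM in HTO4+HTO8. The ratios of SLBP, HELLS and CDCA7 were 2.25, 3.27 and 3.71, so the narrow span of the sum rested largely on NASP. UHRF1, which links DNA methylation to replication, and CHAF1B, a subunit of the histone loading complex CAF-1, had 243 and 124 UMIs.

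Fork protection and checkpoint genes lay between 24.9 CPM in HTO2+HTO8 and 75.9 CPM in HTO3+HTO7, a ratio of 3.05 (2.14 to 4.42). CLSPN, the adaptor claspin of the replication checkpoint (chromosome 1, 35720218 to 35769967, minus strand), had 12.97 CPM in HTO2+HTO8, 14.0 in HTO2+HTO7, a median of 28.1 and 44.9 CPM in HTO3+HTO7. TIPIN, a partner of TIMELESS at the fork, lay between 9.19 CPM in HTO2+HTO8 and 24.6 CPM in HTO3+HTO9. DTL, the substrate receptor that directs breakdown of CDT1 on PCNA, had 200 UMIs. CCNE1, CCNE2 and E2F8, the cyclins E and a repressing E2F factor, had 110 to 160 UMIs each, and their sum ran from 8.73 CPM in HTO2+HTO6 to 20.9 CPM in HTO4+HTO8, a ratio of 2.39 (1.41 to 4.05).

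The 39 genes were found together in the same cells. For each gene, cells were ranked by the thinned sum of the other 38, so that the gene itself took no part. All 39 were 2-fold or more higher in the high cells, against 4.79% of all 13537 genes with 30 UMIs or more, which were compared by the sum of all 39 genes. For 33 the ratio was 4-fold or more, and the median was 7.50 against 1.01 over all genes. It was higher in 13 of 13 pairs for 36 genes, in 12 for CHAF1B and in 11 for EXO1 and UNG. Widest apart were E2F8, at 17.7 CPM in high cells and 0.35 in the others (50.5-fold, 23.9 to 128), MCM10 (48.7-fold), DTL (44.3-fold) and CLSPN, at 82.4 and 2.69 CPM (30.6-fold, 23.2 to 41.2). CDC45, CCNE2, EXO1, RRM2 and CDC6 followed with 29.2, 28.5, 28.4, 26.0 and 21.8-fold. TYMS had 221 and 17.4 CPM (12.7-fold), and PCNA 150 and 26.6 CPM (5.64-fold). Least apart were NASP, at 291 and 123 CPM (2.37-fold, 2.24 to 2.50), UNG (2.54-fold), TIPIN (2.72-fold), SLBP (2.99-fold), RFC2 (3.30-fold) and POLA1 (3.51-fold). Among the ring subunits the ratio ran from 4.84 for MCM5 to 9.69 for MCM4.

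**Figure D3:**
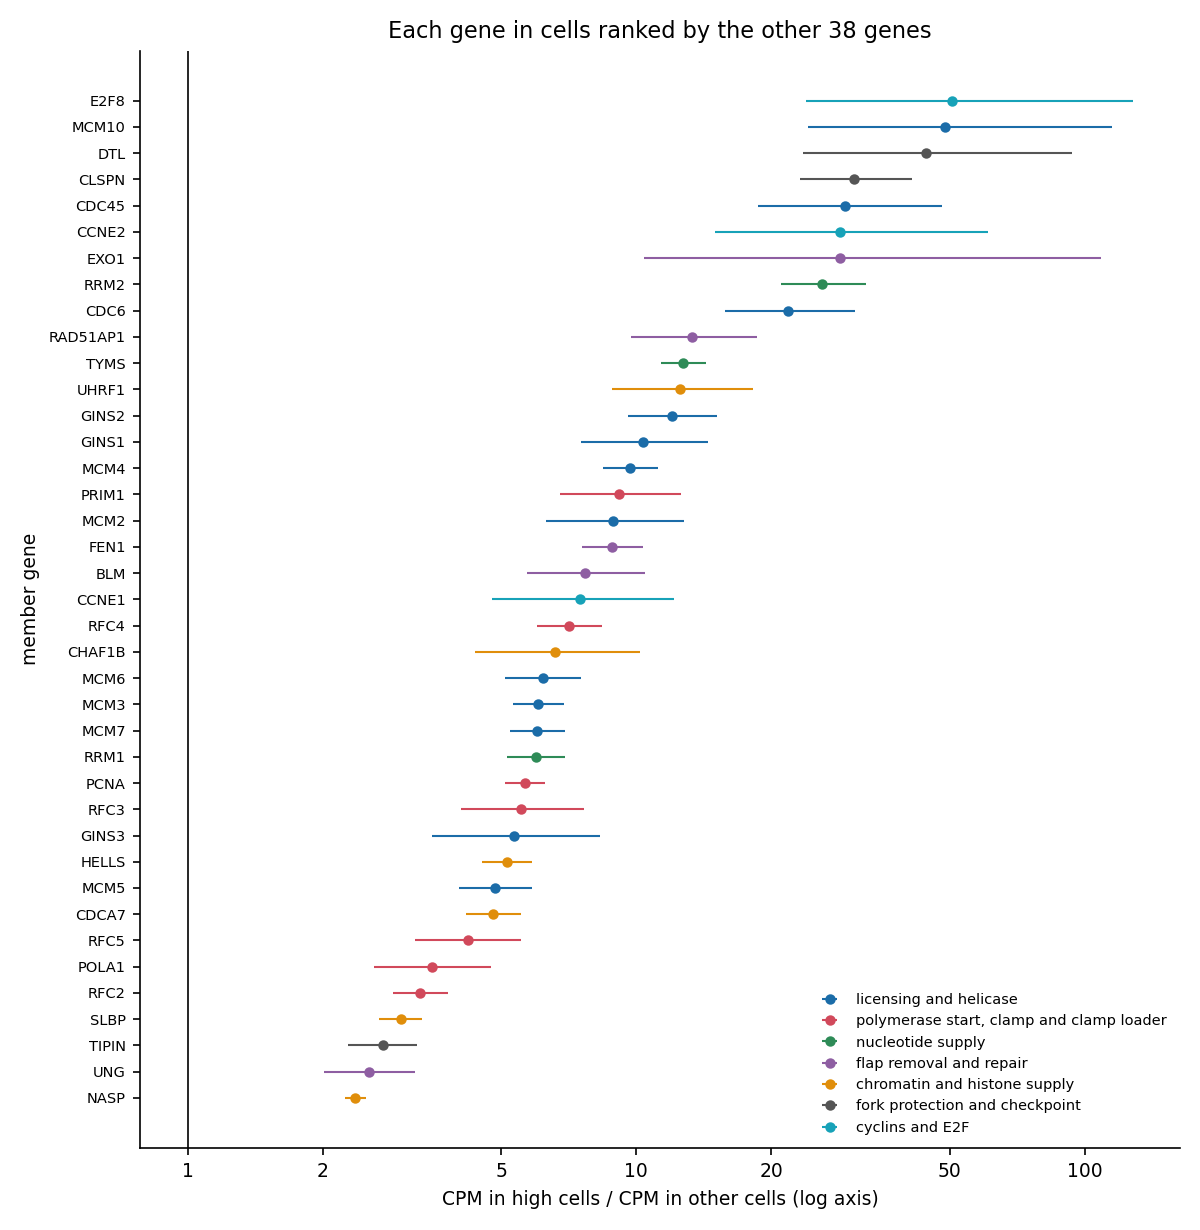
For each of the 39 genes (vertical axis, coloured by role), the ratio of CPM in cells with a high sum of the other 38 genes to CPM in the other cells, on a log axis, with exact 95% intervals as bars. The points run from 2.37 for NASP to 50.5 for E2F8, and no interval reaches 1.

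Correlations over the 2808 thinned cells, centred within pairs, describe the same pattern; the cells share 1 library and low counts hold all values down. Among the 7 genes found in 10% of these cells or more, the median correlation was 0.209, and 21 of 21 gene pairs were above 0 (0.096 to 0.299), against a median of 0.0008 over 4678 genes. Among the 37 genes found in 1% of cells or more the median was 0.104, against -0.0002 over 11691 genes. Of their 666 gene pairs, 649 were above 0. The closest gene pair was RRM2 with TYMS, at 0.499, followed for RRM2 by CLSPN, at 0.373. TYMS and CLSPN had the highest mean correlation with the other genes (0.205 each), then RRM2 (0.196), PCNA (0.184) and MCM4 (0.174). UNG (0.036) and POLA1 (0.035) had the lowest.

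The genes did not relate alike to the transcripts of G2 phase and mitosis. TYMS and RRM2 had a mean correlation of 0.293 and 0.278 with the 52 G2 and mitosis genes, above their own mean with the other replication genes described here. RRM1 (0.166), RAD51AP1 (0.153) and CLSPN (0.144) came next. MCM5 (0.032), MCM6 (0.030) and UNG (-0.00029) lay near 0. Counting the 50 genes best correlated with each, RRM1 had 20 G2 and mitosis genes and 2 of the replication genes, TYMS had 19 and 2, and RRM2 had 18 and 3. MCM6 had 0 and 19, HELLS 2 and 18, and PCNA 5 and 16. These counts have no background from all genes beside them.

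Outside the 39 genes, the genes whose level over cells was most like their sum were, out of 4671 genes found in 10% of cells, the histone variant gene H2AFZ (0.472), the topoisomerase TOP2A (0.457), the thymidine kinase TK1 (0.456) and the proliferation marker MKI67 (0.447). TUBA1B, UBE2C, TPX2, CENPF, HMGB2, BIRC5, HIST1H4C, UBE2S, TUBB4B, STMN1 and RANBP1 followed, down to 0.326. The median gene stood at 0.005. The most negative were the ferritin heavy chain FTH1 (-0.307), the long noncoding RNA MALAT1 (-0.296) and IFITM3, an interferon-induced membrane protein (-0.277), then MTRNR2L12, ITM2B, B2M, MTRNR2L1, TXNIP and FTL, up to -0.216. Each of these genes was found in over 86% of cells, so they are abundant transcripts.

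Cells were also grouped by genes that are not among the 39, replication-dependent histones and G2 and mitosis genes, each cut at the 80th percentile of its thinned sum. In the 1465 cells high for neither, the 39 genes were at 451 CPM (440 to 463), in the 729 high for histones only at 459 CPM (443 to 476), in the 354 high for both at 2605 CPM (2561 to 2650), and in the 260 high for G2 and mitosis only at 1507 CPM (1466 to 1549). Over the first class this was 1.02-fold, 5.77-fold (5.60 to 5.95) and 3.34-fold (3.22 to 3.47). Of the 39 genes, 2 were 2-fold or more higher in the histone-only class (1.34% of all genes), 39 in the class high for both (6.39%) and 36 in the G2 and mitosis only class (4.95%). The 2 in the histone-only class were RRM2 (2.57-fold, 1.33 to 5.06) and EXO1, which rested on 2 UMIs against 1. The median depth of the 4 classes was 8522, 8255, 13398 and 11627.5 UMIs per cell in the same order, and the part of depth in these levels was not tested.

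Between the first class and the class high for both, RRM2 went from 1.34 to 178 CPM (133-fold, 83.7 to 225), TYMS from 11.1 to 288 CPM (25.9-fold) and CLSPN from 3.78 to 105 CPM (27.7-fold). NASP went from 125 to 331 CPM (2.65-fold), UNG from 7.42 to 15.9 CPM (2.14-fold) and MCM5 from 11.8 to 37.3 CPM (3.17-fold). The histone limit at the 80th percentile was only 2 UMIs, and HIST1H2AC, 1 of the listed histones, was at 44.2 CPM in high and 57.9 CPM in other cells, unlike HIST1H1B (184 and 5.44 CPM) and HIST1H1D (242 and 17.9 CPM). With both limits at the 90th percentile (4 histone and 17 G2 and mitosis UMIs), the 39 genes were at 605 CPM in cells high for neither, 1139.7 in histones only, 3478 in both and 1531 CPM in G2 and mitosis only, so the histone-only class then had 1.88 times the level of the first (1.79 to 1.98). At that limit, MCM6 was at 23.6 CPM in the histone-only class and 12.7 CPM in the G2 and mitosis only class, a ratio of 1.86 (1.11 to 3.18). It was the only 1 of the 39 genes whose interval lay above 1. The share of all genes on either side of 1 was not computed, so these counts have no background beside them. The interval lay below 1 for 12 genes: TYMS (75.3 and 236 CPM, 0.319, 0.259 to 0.389), RFC3 (0.347), RFC5 (0.349), RAD51AP1 (0.428), BLM (0.478), RRM1 (0.483), RRM2 (0.506), FEN1 (0.551), RFC4 (0.571), MCM7 (0.608, 0.426 to 0.857), CDCA7 (0.613) and NASP (0.861). MCM7 and MCM6, from the same ring, thus lay on opposite sides of 1 at that limit, and for the other 26 genes the interval held 1. With limits at the 80th percentile both lay below 1, MCM6 at 0.389 (0.283 to 0.533) and MCM7 at 0.317 (0.248 to 0.403). The contrast between them therefore depended on the limit. At the 90th percentile, the licensing and helicase genes as a whole were at 292 and 295 CPM and the nucleotide supply genes at 154 and 394 CPM. At the 80th percentile, the licensing and helicase genes were at 96.0 and 396 CPM (0.243, 0.221 to 0.267). The nucleotide supply genes were then at 25.4 and 235 CPM (0.108), and the ratio lay below 1 for each role.

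**Figure D4:**
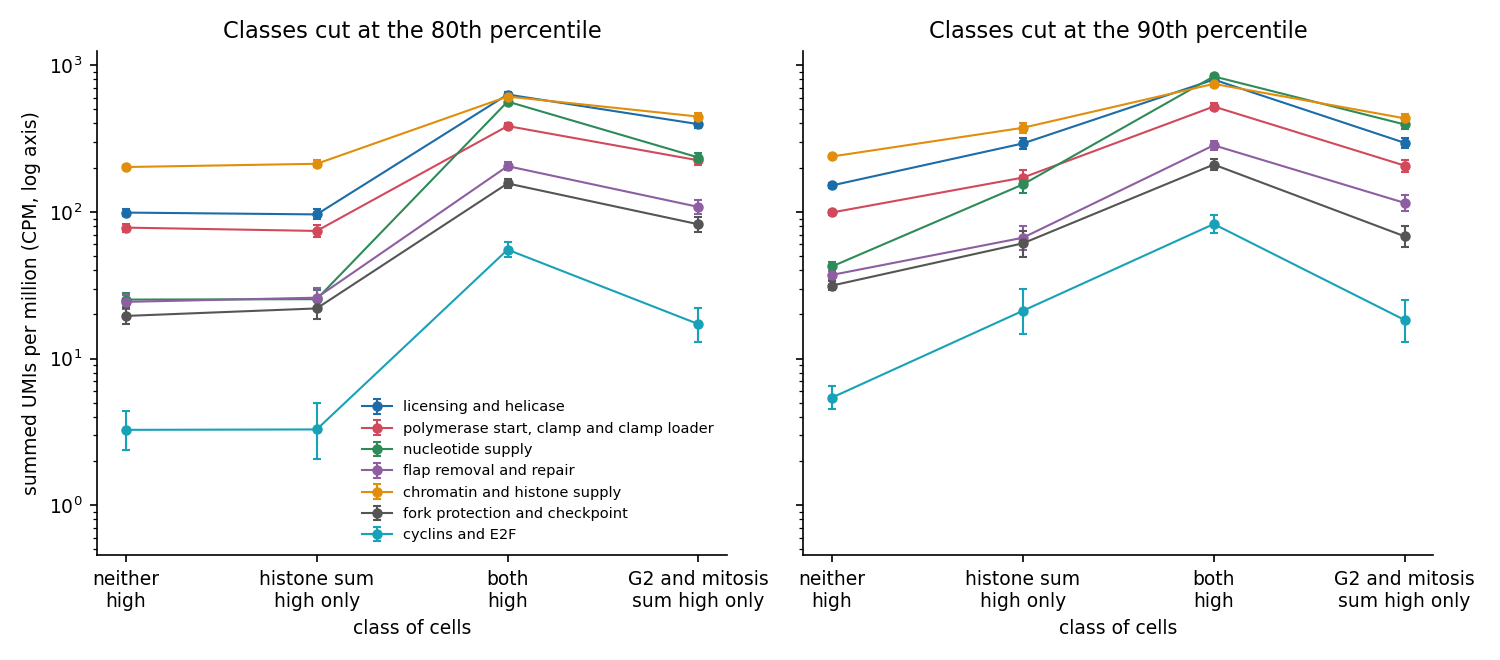
Summed CPM (log axis, exact 95% intervals as bars) of the 7 roles of replication genes in 4 classes of cells, defined by replication-dependent histones and by G2 and mitosis genes cut at the 80th percentile (left) or the 90th percentile (right) of their thinned sums. The class high for both is the highest for each role, and the nucleotide supply genes have the steepest step, 22.4-fold over the class high for neither at the 80th percentile.

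Cells with a high sum of G2 and mitosis genes (17 UMIs or more) made up 3.33% of HTO4+HTO9 (0.69 to 9.43%), 6.70% of HTO2+HTO8 (3.51 to 11.4%) and 21.5% of HTO3+HTO7 (14.9 to 29.4%). Of the 286 such cells, 81.8% were also high for the replication genes, while 36.6% of the cells high for the replication genes were high for G2 and mitosis. Cells high for the replication genes but not for G2 and mitosis made up 6.70% of HTO2+HTO8 and 8.57% of HTO3+HTO6, up to 20.1% of HTO4+HTO6 (14.7 to 26.4%). In HTO4+HTO9 these were 17.8% of cells (10.5 to 27.3%), and 16 of its 19 cells high for the replication genes were of this kind.

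Other genes of replication, from a list of 48 that holds none of the 39, were higher in high cells than in other cells in 13 of 13 pairs, with a median ratio of 2.58 (2.38 to 3.04 over the pairs). Of the 48, 40 were 1.5-fold or more higher (10.8% of all genes were) and 0 were lower by as much (12.8% of all genes were). The widest were ORC1, of the origin recognition complex (31.7-fold), the histone chaperone ASF1B (17.1-fold), ORC6 (12.9-fold), ATAD2 (11.2-fold), TK1 (11.1-fold) and CDT1, the partner of CDC6 in licensing (10.8-fold); these 6 were named after their values were seen. ORC4 (0.96-fold), ASF1A (1.14-fold) and ORC2 (1.21-fold), named in the same way, were nearly level. DUT, which keeps uracil out of DNA, was at 300 CPM in high cells and 111 CPM in other cells on average over pairs, the maintenance methyltransferase DNMT1 at 149 and 42.0 CPM, and RPA3, of the single-strand binding complex, at 236 and 100.3 CPM. The polymerase subunit POLE4 was at 185 and 153 CPM and POLD2 at 196 and 115 CPM.

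Cell cycle regulators of S phase had a median ratio of 1.62 (1.28 to 2.16) and were higher in 13 of 13 pairs. Of the 15 genes, 11 were 1.5-fold or more higher and 0 as much lower (10.8% and 12.8% of all genes). The cyclin D1 gene CCND1 was at 485 CPM in high and 329 CPM in other cells, the kinase CDK4 at 109 and 65.7 CPM and CKS1B, a CDK subunit, at 247 and 125 CPM. CCND3 was at 18.4 and 24.5 CPM. Among the E2F factors of this list, E2F1 was 31.0-fold higher and E2F2 23.9-fold higher, but E2F7 7.76-fold and E2F3 only 1.25-fold. All were named after their values were seen. G2 and mitosis genes had a median ratio of 5.14 (2.40 to 7.68), with 52 of 52 genes 1.5-fold or more higher: TOP2A was at 456 and 49.3 CPM and UBE2C, which drives breakdown of mitotic cyclins, at 289 and 28.3 CPM. TPX2 and CENPF were at 246 and 31.4 CPM and at 325 and 39.8 CPM. SMC4, of condensin, and the tubulin gene TUBB4B were less far apart, at 287 and 96.2 CPM and at 634 and 212 CPM. Replication-dependent histones had a median ratio of 3.43 (2.05 to 7.14), with 24 of 32 measured genes higher and 2 lower. Most histone mRNAs of this kind have no poly(A) tail, so a library primed on poly(A) holds only part of them.

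Genes known to hold the cell cycle back were lower in high cells in 12 of 13 pairs, with a median ratio of 0.823 (0.635 to 1.11), and HTO2+HTO8 was the pair with the opposite order. Of the 10 measured genes, 3 were 1.5-fold or more lower and 3 as much higher (12.8% and 10.8% of all genes), so the list did not move as one. BTG1, an antiproliferative gene, was at 203 CPM in high and 307 CPM in other cells and the CDK inhibitor gene CDKN1C at 14.4 and 34.4 CPM, both lower in 13 of 13 pairs. CDKN2D, which inhibits CDK4, was at 27.5 and 12.7 CPM, and GADD45A, a gene induced by DNA damage, at 94.4 and 58.3 CPM, both higher in 12 of 13 pairs.

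**Figure D5:**
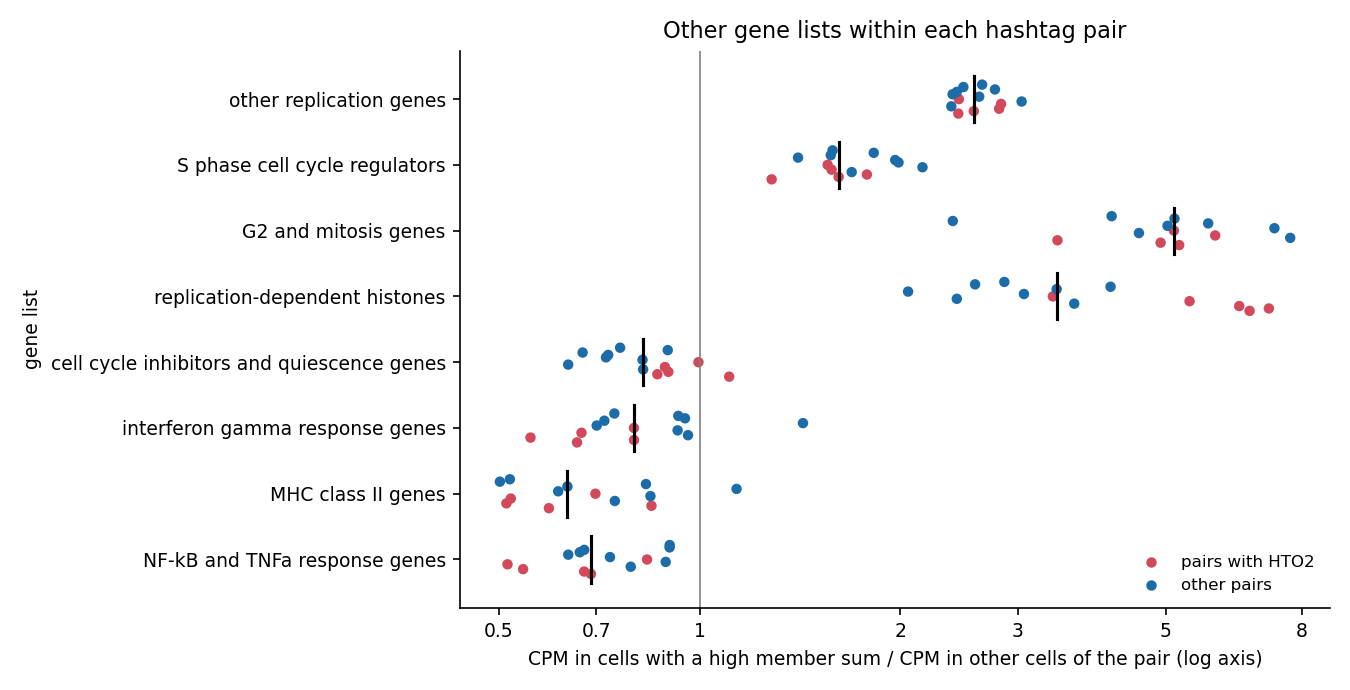
Ratio of summed CPM in cells with a high sum of the 39 replication genes to CPM in the other cells of the same hashtag pair (log axis) for each gene list (vertical axis); each point is 1 pair, red with HTO2 and blue without it. The proliferation lists lie above 1 in 13 of 13 pairs, and the NF-kB and TNFa response genes lie below 1 in 13 of 13.

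Genes that respond to the injected cytokines were compared in the same way, inside each pair. IFNg response genes were lower in high cells in 12 of 13 pairs (the exception was HTO3+HTO9), with a median ratio of 0.797 (0.558 to 1.43), and 7 of 15 genes were 1.5-fold or more lower and 0 higher, beside 12.8% and 10.8% of all genes. In HTO2+HTO9 the list was at 12603 CPM in high and 22593 CPM in other cells, and in HTO2+HTO8 at 16708 and 25510.5 CPM. In HTO4+HTO8 and HTO4+HTO9 it was at 8354 and 8786 and at 9725 and 10493 CPM, nearly level. GBP1, an interferon-induced GTPase, was at 362 and 571 CPM on average over pairs and IDO1, an enzyme of tryptophan breakdown, at 505 and 841 CPM. The immunoproteasome gene PSMB9 (600.2 and 644 CPM) was closer to level. Such means, and the counts of genes taken from them here and below, weigh pairs with high levels most. IDO1 was at 2918 and 4746 CPM in HTO2+HTO8 but at 1170 and 1176 CPM in HTO4+HTO8. Pair by pair, GBP1 was lower in high cells in 12 of 13 pairs and IDO1 in 11, with median ratios of 0.683 and 0.606.

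MHC class II genes were lower in high cells in 12 of 13 pairs, again except HTO3+HTO9, with a median ratio of 0.634 (0.502 to 1.14), and 2 of 8 genes were lower by 1.5-fold or more, beside 12.8% of all genes. NF-kB and TNFa response genes were lower in 13 of 13 pairs, with a median ratio of 0.687 (0.515 to 0.902), and 9 of 16 genes were lower by as much, beside the same 12.8%. The cytokine gene LTB was at 300.1 and 610 CPM, the mitochondrial superoxide dismutase SOD2 at 268 and 511 CPM and NFKBIA, the inhibitor of NF-kB, at 327 and 399 CPM. High cells were deeper, with a median of 12173 UMIs against 8371, in 13 of 13 pairs, and had a median of 14.3% mitochondrial UMIs against 15.2%. In cells of 8000 to 14000 UMIs alone, the median ratios were 0.852 for the IFNg response, 0.741 for MHC class II and 0.745 for NF-kB and TNFa genes. Macrophage or monocyte markers were lower in high cells in 12 of 13 pairs, at 41.0 and 66.4 CPM on average, and epithelial markers had a median ratio of 1.03; their part in these ratios was not tested.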

How the data were processed

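Gene expression and hashtag UMIs were measured in 1 pooled single-cell library of 13 tumours. The deposited values are raw UMI counts for 36601 genes and 10 hashtags, with no scaling. Per the file headers, Cell Ranger 5.0.1 wrote the matrix. The submitters' processing notes give Cell Ranger 2.1.1 with GRCh38 instead. The annotation was not given in the sources used here. Coordinates were taken from GENCODE 29.

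Barcodes were kept with at least 500 genes and no more than 20% of UMIs from mitochondrial genes. A cell was given to the pair of its 2 highest hashtags of HTO2 to HTO9 when the second had 20 counts or more and at least 4 times the third; this also left out multiplets of different pairs, while those within a pair cannot be seen, and no doublet caller was run. No barcode occurred more than once. Levels are UMIs summed over cells per 1000000 (CPM) with exact Poisson intervals, ratios of 2 levels have exact binomial intervals and shares have Clopper-Pearson intervals. High cells came from counts thinned to 4000 UMIs per cell, and correlations from log1p of these counts centred on pairs. Ratios over pairs are of mean CPM for single genes and medians over pairs for lists.

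The 39 genes, the 8 gene lists, the 7 marker lists and the tests were chosen with earlier results of these data known. The named genes were the 39, the 15 most and 10 least correlated with their sum and the 6 with the most UMIs of each list (2 of these genes are not reported here), with the exceptions stated. A fold limit of 2 was used between pairs and for the 39 genes, and of 1.5 for lists within pairs. With 1 library and no known tumour for each pair, no p-value was computed. The statistics were tested on simulated data. Alternatives covered the cell filter, the hashtag rule, the thinning depth, the limit for high cells, the correlation measure and the UMI minimum. Columns of other samples numbered 0. Calculations used scipy 1.17.1 and numpy 2.4.6 under Python 3.11.15, with tables in pandas 2.3.3 and plots in matplotlib 3.10.9.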

Additional observations from a re-analysis of the deposited data

Results flagged for a closer look

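The 39 replication genes were also present in barcodes left out of the main comparisons. Those of a hashtag pair above the mitochondrial limit entered only the alternatives with no such limit. Some without a clear pair entered only the alternative with the second hashtag 2 or more times the third. In the 4077 barcodes of a hashtag pair above the mitochondrial limit they reached 538 CPM (529 to 548), against 951 CPM in the cells used. Per 1000000 UMIs that were not mitochondrial, the values were 821 and 1109. In the 617 barcodes that passed the cell filter but had no clear hashtag pair the genes reached 975 CPM (952 to 999.6), with a median of 9453 UMIs per barcode against 8646 in the cells used.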

How the results depend on the processing

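No paired analysis was possible because the tumour behind each of the 13 pairs is not known here and all come from 1 library. HTO2+HTO8 stayed the lowest pair for the summed level in each of the 8 alternatives to 2.30-fold. The highest pair was HTO3+HTO7 at the main settings and for the mean thinned sum per cell. With 1000 genes and at most 10% mitochondrial UMIs, and for the median over genes, it was HTO3+HTO9. With the second hashtag 2 or more times the third it was HTO4+HTO8, and in the other alternatives HTO4+HTO6. The ratios of highest to lowest pair thus compare different pairs. The ratio was 4.68 with 1000 genes and at most 10% mitochondrial UMIs (400 cells), 2.04 with no mitochondrial limit, 3.997 for the median over genes of log2(CPM + 1) in place of the sum, 2.57 without the 5% of cells with the most UMIs and 2.69 without NASP. For single genes, 37 of 39 differed 2-fold at a minimum of 30 UMIs (69.3% of all genes), and 3 of 3 under the strict cell filter (74.4%), of which 1 was lowest in HTO2+HTO8 (17.8%). Without the mitochondrial limit 26 of 29 differed 2-fold (44.6%), 22 of the 29 were lowest in HTO2+HTO8 (20.8%), and 28 of 38 genes with a ratio were lowest in HTO2+HTO8. The share of high cells differed 4.77-fold with the limit at the 90th percentile, against 2.64-fold. The median correlation of 0.209 became 0.320 without thinning and 0.104 at a detection minimum of 1% of cells. At the 70th percentile the class high for both stood at 5.59-fold and that high for G2 and mitosis only at 2.96-fold; at the 90th percentile the latter stood at 2.53-fold and the histone-only class at 1.88-fold. Without cells of a high G2 and mitosis sum, the ratio of the G2 and mitosis genes in high cells was 2.02 in place of 5.14. The cause was not tested, save that the last setting removes such cells by its construction. The alternatives on NASP, on cells of most UMIs, of 8000 to 14000 UMIs or of a high G2 and mitosis sum, the detection minimum of 1% and the ranking by the other 38 genes were chosen after seeing the data. The histone-only class, at 1.02-fold (0.974 to 1.06), stood at 0.985-fold at the 70th percentile, so its side of 1 was not settled. The MCM6 ratio of the histone-only class to the G2 and mitosis only class changed sides with the limit. That ratio was 1.86 (1.11 to 3.18) at the 90th percentile and 0.311 (0.218 to 0.437) at the 70th percentile. The other results given alternatives in this paragraph kept their direction. Depth limits the 17 genes under 300 UMIs most.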
